A study of Mus musculus with 40 samples.

Results

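The genes described here are 8 endothelial genes treated as a set: the leukocyte adhesion molecules *Selp*, *Sele*, *Vcam1*, *Icam1* and *Madcam1*, the secreted clotting and storage protein *Vwf*, the diaphragm protein *Plvap* and the transcription factor *Nr2f2*. They were chosen by name, not by a measured value. Of the 8 genes, 7 are listed in each table of expression values, among 17646 genes for male hearts and 17223 for female hearts, and *Madcam1* is listed in neither. All 7 passed the filter on low values in both sexes. *Selp* did so only through CM-Il11-Tg libraries, since every control library of either sex lay under the limit of 0.5 CPM, the unit of the deposited values, which are read counts scaled for the depth of each library.

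The hearts came from mice in which tamoxifen switches on *Il11* in cardiomyocytes. CM-Il11-Tg mice were heterozygous for a *Rosa26-Il11* transgene and for MCM, a tamoxifen-inducible Cre under the α-MHC promoter, which limits recombination to cardiomyocytes. Controls, labelled WT, were littermates that carried MCM without the *Rosa26-Il11* transgene and also received tamoxifen, so Cre and the drug are shared with the induced mice. Their time label is Baseline, and this 1 control group per sex serves all 3 weeks, so time since tamoxifen cannot be told apart from the transgene in those comparisons. Tamoxifen was injected from 8 weeks of age, and hearts were taken 1, 3 and 6 weeks after induction, while uninduced CM-Il11-Tg mice carried both transgenes and received no tamoxifen. The uninduced group therefore differs from controls in the transgene and in the drug, and these cannot be told apart. Each group had 4 libraries per sex, 1 heart each, except male controls and male 6-week hearts with 3.

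Blood leukocytes leave the circulation mainly through postcapillary venules. Endothelial cells there first display selectins, which let leukocytes roll, and then immunoglobulin-type adhesion molecules, which bind leukocyte integrins and hold the cells before they cross. P-selectin is stored together with von Willebrand factor in Weibel-Palade bodies and can reach the surface within minutes. E-selectin, VCAM-1 and ICAM-1 are raised by signals such as TNF or IL-1 that act through NF-kB. PLVAP forms the diaphragms of fenestrae and caveolae, is carried by venous, endocardial and fenestrated endothelium and is low in most heart capillaries. COUP-TFII, the product of *Nr2f2*, sets venous identity during development and is also carried by atrial cardiomyocytes and lymphatic endothelium. MAdCAM-1 is the adhesion molecule of gut and lymphoid venules.

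In GRCm39, *Sele* (chr1:163867401-163886055) and *Selp* (chr1:163942833-163977595) lie on the plus strand. *Icam1* lies at chr9:20926672-20940113 and *Vwf* at chr6:125523737-125663642 on the plus strand. *Vcam1* (chr3:115903598-115923355), *Plvap* (chr8:71948674-71964506) and *Nr2f2* (chr7:70001692-70016519) are on the minus strand. The exons of *Plvap* share 834 of their 3842 bases with *Gtpbp3* on the other strand, and those of *Nr2f2* share 1225 of 9403 bases with the antisense RNA *B130024G19Rik*. Per the study's methods the libraries were made with a directional kit. The sources used here do not say whether reads were counted by strand, so reads in the shared stretches cannot be assigned with certainty. *Gtpbp3* itself ran from 12.6 to 14.8 CPM in male control hearts and from 14.3 to 18.5 CPM at 6 weeks. In females it ran from 11.9 to 13.5 CPM in controls and from 11.4 to 15.4 CPM at 6 weeks. *B130024G19Rik* stayed at or under 1.73 CPM in every group of males and of females.

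Promoter windows are shown for the 4 listed genes that have one in the RefSeq promoter table, which holds 5 of the 8 genes and no window for *Vcam1*, *Vwf* and *Plvap*. The windows run from 250 bases before to 50 after the start of transcription, on the gene's strand, in GRCm38.p6. They are chr1:164047984-164048283 for *Sele*, chr1:164115014-164115313 for *Selp*, chr9:21015690-21015989 for *Icam1* and chr7:70366697-70366996 on the minus strand for *Nr2f2*. Capitals mark matches to an NF-kB-like motif, GGNNNTTCC (GGAANNNCC on the other strand), or a STAT-like motif, TTCNNNGAA.
Sele: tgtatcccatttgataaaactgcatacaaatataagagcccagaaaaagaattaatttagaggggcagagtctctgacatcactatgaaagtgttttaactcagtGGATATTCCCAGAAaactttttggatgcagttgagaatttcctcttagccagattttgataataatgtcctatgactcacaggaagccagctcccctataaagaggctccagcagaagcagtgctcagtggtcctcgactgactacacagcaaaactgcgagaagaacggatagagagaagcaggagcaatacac
Selp: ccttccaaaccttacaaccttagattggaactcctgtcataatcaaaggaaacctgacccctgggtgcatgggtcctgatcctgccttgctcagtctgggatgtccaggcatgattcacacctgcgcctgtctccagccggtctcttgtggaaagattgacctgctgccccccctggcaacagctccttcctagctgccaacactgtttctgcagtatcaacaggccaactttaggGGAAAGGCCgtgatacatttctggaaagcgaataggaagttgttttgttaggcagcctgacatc
Icam1: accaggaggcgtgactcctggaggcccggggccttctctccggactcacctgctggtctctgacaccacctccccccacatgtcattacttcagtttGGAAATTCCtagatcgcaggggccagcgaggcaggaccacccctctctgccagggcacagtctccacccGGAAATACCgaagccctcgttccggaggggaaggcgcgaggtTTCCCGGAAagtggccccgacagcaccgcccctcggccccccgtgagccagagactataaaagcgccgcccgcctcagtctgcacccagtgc
Nr2f2: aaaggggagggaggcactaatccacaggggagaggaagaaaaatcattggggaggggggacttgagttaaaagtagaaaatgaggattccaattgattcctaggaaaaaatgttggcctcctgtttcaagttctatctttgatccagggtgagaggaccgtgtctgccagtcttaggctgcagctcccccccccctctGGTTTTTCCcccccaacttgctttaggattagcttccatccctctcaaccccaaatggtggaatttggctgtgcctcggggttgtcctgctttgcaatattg

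The *Sele* window holds an NF-kB-like match whose first base lies at -145 and, overlapping it, a STAT-like match at -140. *Icam1* has NF-kB-like matches at -153 and -84 and a STAT-like match at -42. *Selp* has an NF-kB-like match at -14 and *Nr2f2* has one at -52. The window of *Madcam1*, a gene without expression values here, is not shown and holds NF-kB-like matches at -83 and -70. Of 32851 windows of the same length in the table, 18.5% hold the NF-kB-like motif and 8.3% the STAT-like motif. These matches are a description of the letters and were not tested as binding sites.

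The transgene was on as labelled. *Il11* lay between 0 and 0.166 CPM in the controls of either sex and between 328 and 819 CPM in induced hearts. In uninduced hearts it lay between 15.5 and 49.1 CPM, above every control. Male libraries held between 16663513 and 65333832 reads in genes, and female libraries between 19147947 and 30929192. Of 40 libraries, 2 male ones have labels that contradict each other and are in no group here. *Il11* read 511 CPM in the one titled as control and 0.597 CPM in the one titled as 6 weeks, so the titles go against the transgene and the descriptions do not. Placed by title, they left 5 of the 7 genes called in males at 1 week and 0 at 3 and 6 weeks, and placed by description they left 6 at each week. Markers of atrial cardiomyocytes summed to 119 CPM in female 1-week replicate 2 and to 729 CPM in female 6-week replicate 2, against 1.02 to 3.14 CPM in the other 18 female libraries, although the study's text names left ventricular tissue. Both libraries are also the highest of their groups for *Selp*, *Vcam1* and *Plvap*. Female 1-week replicate 2 is also the highest of its group for *Vwf* and *Nr2f2*, and female 6-week replicate 2 for *Icam1*. Values without both libraries are given beside these genes.

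The question was whether genes of adhesive and venous endothelium differ from controls once cardiomyocytes express *Il11*, and when. *Selp*, *Sele*, *Vcam1*, *Icam1*, *Vwf* and *Plvap* were higher than in controls at 1, 3 and 6 weeks in both sexes, while *Nr2f2* did not pass the test at any week. As ratios of mean CPM at 6 weeks in females, the size ranged from 1.55 for *Vwf* to 113 for *Selp*.

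A gene was called when its adjusted p fell under 0.05 in limma, fitted on log2(CPM + 0.5) over all 16931 genes tested in males or 16956 in females. In males 6 of the 7 genes were called higher and 0 lower at each week, where 18.9% of all genes were higher and 14.6% lower at 1 week, 13.2% and 8.1% at 3 weeks, and 16.2% and 10.9% at 6 weeks. In females 6 of 7 were also higher and 0 lower at each week, against 15.3% of all genes higher and 13.1% lower at 1 week, 16.8% and 14.5% at 3 weeks, and 21.7% and 21% at 6 weeks. The median log2 change of the 7 genes was 2.04, 1.71 and 1.70 in males and 1.88, 2.04 and 2.47 in females at the 3 weeks in order, and the median over all genes tested lay between -0.02 and 0.02. For the same 6 genes every induced library lay above every control library of its sex at each week. The share of all genes of which that held was 22%, 18.4% and 20.4% in males and 16.5%, 18.9% and 19.5% in females at 1, 3 and 6 weeks. edgeR and DESeq2 were run on the reads behind the CPM values. Over the weeks and sexes they called 2247 to 3834 of all genes higher and 1339 to 3395 lower. Both called the same 6 genes higher at each week in both sexes. Of these 6, *Selp* had entered the tests only through CM-Il11-Tg libraries, as given above. In bulk tissue, more endothelial cells of one kind, more RNA per cell and RNA from other cell types cannot be told apart.

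**Figure D1:**
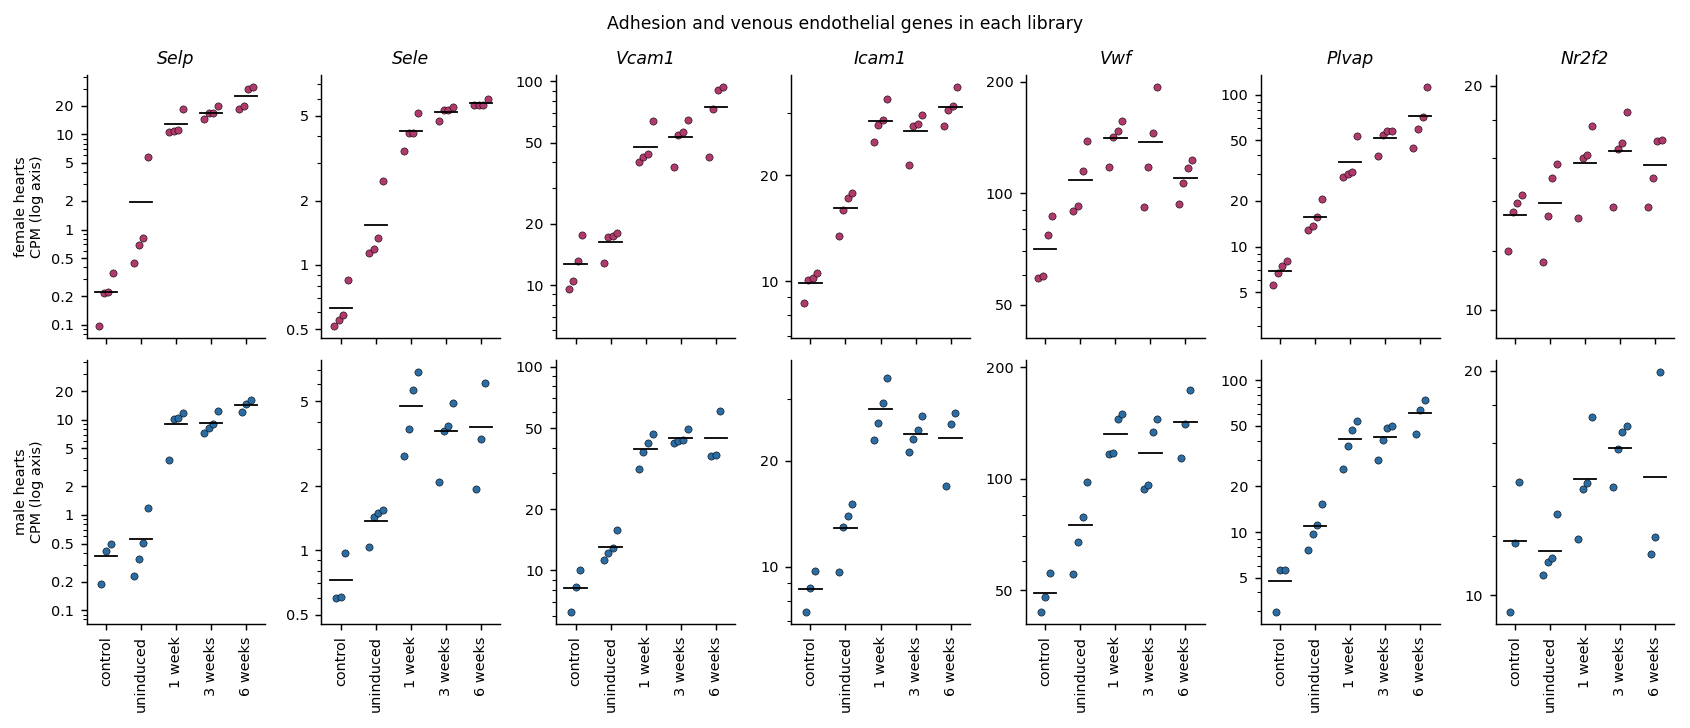
Values of 7 genes in each library, in CPM on a log axis that is shared by the sexes within a gene. Points are libraries, horizontal lines are group means, females in the upper row and males in the lower row. The induced groups of every gene but *Nr2f2* lie above the controls without overlap, and *Selp* starts from the lowest level, 0.221 CPM on average in female controls.

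*Selp* encodes P-selectin, which binds PSGL-1 on leukocytes and starts rolling. In female controls its 4 libraries read 0.215, 0.0968, 0.350 and 0.222 CPM. They read 10.7, 18.4, 11.2 and 10.7 CPM at 1 week, 19.6, 14.3, 16.8 and 16.7 CPM at 3 weeks, and 18.5, 31.7, 30.1 and 19.7 CPM at 6 weeks. The controls are near the floor of detection and the induced libraries lie far above them, with the weeks overlapping their neighbours. The log2 changes on the log2(CPM + 0.5) scale were 4.17, 4.59 and 5.12 (SE 0.39 each; adjusted p = 6.0e-08, 1.2e-08 and 1.8e-09), the largest of the 7 genes at each week in females. This scale understates the change of so low a gene, since all female controls together hold 18 reads on *Selp* against 1310, 1888 and 2704 reads at the 3 weeks. Scaled for depth, the pooled reads give a ratio of 58.5 at 1 week, 76.7 at 3 weeks and 113 at 6 weeks, with 95% exact intervals of 36.9 to 99.0, 48.4 to 130 and 71.0 to 190 that cover counting error only.

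In male hearts *Selp* read 0.187, 0.492 and 0.423 CPM in controls. It read 10.3, 10.2, 11.7 and 3.82 CPM at 1 week, 8.21, 12.4, 7.23 and 9.05 CPM at 3 weeks, and 14.7, 12.2 and 16.2 CPM at 6 weeks. Male 1-week replicate 4 is the lowest induced library and is still above every control. Against control the log2 changes were 3.37 (SE 0.31), 3.48 (SE 0.31) and 4.11 (SE 0.33), with adjusted p of 1.3e-07, 8.3e-08 and 2.2e-08, and the ratios of mean CPM were 24.6, 25.1 and 39.1. Without the 2 libraries with atrial markers, female *Selp* averaged 10.9 CPM ± 0.30 (SD, n = 3) at 1 week and 22.8 CPM ± 6.39 (SD, n = 3) at 6 weeks, and the log2 changes were 3.99 and 4.99 (adjusted p = 8.9e-07 and 2.8e-08).

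*Sele* encodes E-selectin, made by endothelium after inflammatory signals and not stored. Female controls read 0.517, 0.581, 0.851 and 0.554 CPM. Female induced hearts read 3.41, 4.17, 4.14 and 5.16 CPM at 1 week, 5.32, 5.32, 5.52 and 4.70 CPM at 3 weeks, and 5.63, 5.58, 5.62 and 5.98 CPM at 6 weeks. The spread was small at 6 weeks, and every 6-week library lay above every 3-week library, although the difference between these weeks did not pass the test. Log2 changes against control were 2.07, 2.35 and 2.47 (SE 0.16 each; adjusted p = 6.0e-09, 6.4e-10 and 2.1e-10). Male controls read 0.600, 0.606 and 0.977 CPM. Male induced hearts read 5.62, 3.69, 6.85 and 2.77 CPM at 1 week, 2.08, 4.91, 3.62 and 3.83 CPM at 3 weeks, and 6.07, 1.94 and 3.33 CPM at 6 weeks. The male libraries spread about as widely within a week as between weeks, and all lay above the controls. Log2 changes were 2.04 (SE 0.31), 1.71 (SE 0.31) and 1.70 (SE 0.33), with adjusted p of 5.2e-05, 0.00038 and 0.00065.

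*Vcam1* encodes a ligand of the integrin VLA-4 on lymphocytes and monocytes, and is made by activated endothelium and also by stromal cells. In female hearts controls read 17.6, 10.5, 13.2 and 9.59 CPM, and induced hearts read 40.2, 63.4, 43.9 and 42.6 CPM at 1 week, 54.2, 38.0, 64.2 and 56.5 CPM at 3 weeks, and 42.6, 94.2, 90.02 and 73.3 CPM at 6 weeks. The 6-week group held both the highest libraries and 1 at the level of the 1-week group. The log2 changes were 1.88, 2.04 and 2.49 (SE 0.23 each; adjusted p = 2.3e-06, 6.4e-07 and 2.7e-08). Without the libraries with atrial markers they were 1.73 at 1 week and 2.36 at 6 weeks (adjusted p = 1.5e-05 and 1.9e-07). Male controls read 8.28, 6.29 and 10.1 CPM, and male induced hearts read 42.1, 38.0, 46.5 and 31.4 CPM at 1 week, 43.5, 42.02, 43.2 and 49.5 CPM at 3 weeks, and 37.0, 60.7 and 36.5 CPM at 6 weeks. The male weeks overlapped one another. The male log2 changes were 2.21 (SE 0.18), 2.39 (SE 0.18) and 2.36 (SE 0.19), with adjusted p of 2.6e-08, 8.4e-09 and 2.5e-08.

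*Icam1* encodes a ligand of the integrins LFA-1 and Mac-1. Female controls read 10.5, 10.1, 8.66 and 10.2 CPM, and induced libraries ran from 24.8 to 32.99 CPM at 1 week, 21.4 to 29.6 CPM at 3 weeks and 27.6 to 35.7 CPM at 6 weeks. The log2 changes were 1.49, 1.38 and 1.62 (SE 0.12 each; adjusted p = 7.1e-09, 1.4e-08 and 1.0e-09). Without the libraries with atrial markers they were 1.48 at 1 week and 1.55 at 6 weeks (adjusted p = 9.0e-08 and 2.4e-08). Male controls read 8.69, 7.46 and 9.70 CPM, and induced libraries ran from 23.0 to 34.4 CPM, 21.2 to 26.9 CPM and 16.9 to 27.3 CPM at the 3 weeks. On the log2 scale the changes were 1.64 (SE 0.17), 1.42 (SE 0.17) and 1.36 (SE 0.19), with adjusted p of 9.0e-07, 5.6e-06 and 1.9e-05. *Icam1* was thus close to 3-fold higher at every week in both sexes, with ratios of mean CPM between 2.69 and 3.26.

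*Vwf* encodes von Willebrand factor, the endothelial and platelet protein that anchors platelets and builds Weibel-Palade bodies. Female controls read 87.0, 77.3, 59.9 and 59.1 CPM, and induced hearts read 148, 157, 142 and 117 CPM at 1 week, 194, 91.8, 118 and 146 CPM at 3 weeks, and 123, 117, 106.5 and 93.6 CPM at 6 weeks. The lowest induced libraries lay just above the highest control. The log2 changes of 1.00, 0.92 and 0.64 (SE 0.19 each) were the smallest among the 6 called genes in females, with adjusted p of 0.00039, 0.00080 and 0.0093. Without the libraries with atrial markers they were 0.95 at 1 week and 0.61 at 6 weeks (adjusted p = 0.0026 and 0.029). Male controls read 43.7, 47.8 and 55.5 CPM, and induced hearts read 117, 145, 149 and 118 CPM at 1 week, 134, 145, 94.0 and 96.2 CPM at 3 weeks, and 141, 114 and 174 CPM at 6 weeks. The male groups were clearly separated from controls. The log2 changes were 1.42 (SE 0.19), 1.23 (SE 0.19) and 1.52 (SE 0.20), with adjusted p of 1.5e-05, 8.1e-05 and 1.4e-05.

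*Plvap* had the second largest change on the log2(CPM + 0.5) scale. As a ratio of mean CPM, *Sele* was higher than *Plvap* in females at 1 week (6.75 against 5.16) and at 3 weeks (8.34 against 7.51). Female controls read 8.01, 6.73, 5.604 and 7.43 CPM, and induced hearts read 29.9, 53.7, 28.7 and 30.9 CPM at 1 week, 54.1, 39.6, 57.4 and 57.4 CPM at 3 weeks, and 44.8, 113, 71.8 and 59.3 CPM at 6 weeks. Replicate 2 stood well above the other 3 libraries at 1 week and at 6 weeks. In log2 terms the 3 weeks differed from controls by 2.25, 2.82 and 3.22 (SE 0.23 each; adjusted p = 2.7e-07, 8.6e-09 and 8.7e-10), and without the libraries with atrial markers they were 2.04 and 2.98 at 1 and 6 weeks (adjusted p = 7.0e-08 and 2.8e-10). Male controls read 5.62, 2.99 and 5.65 CPM, and induced hearts read 25.98, 54.1, 46.7 and 36.7 CPM at 1 week, 49.7, 48.3, 40.5 and 29.996 CPM at 3 weeks, and 63.9, 44.5 and 74.4 CPM at 6 weeks. The log2 changes were 2.97 (SE 0.27), 3.04 (SE 0.27) and 3.56 (SE 0.29), with adjusted p of 9.2e-08, 6.6e-08 and 1.9e-08. The ratio of mean CPM reached 10.4 in females and 12.8 in males at 6 weeks.

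*Nr2f2* behaved differently from the other genes. Its libraries ran from 12.001 to 14.3 CPM in female controls and from 13.3 to 18.4 CPM over the induced weeks, and from 9.51 to 14.2 CPM in male controls and from 11.4 to 19.9 CPM over the induced weeks, so the groups overlapped at every week. In uninduced hearts it ran from 11.6 to 15.7 CPM in females and from 10.6 to 12.9 CPM in males. At 1, 3 and 6 weeks the log2 changes of *Nr2f2* were 0.22, 0.27 and 0.21 in females (SE 0.12 each; adjusted p = 0.17, 0.082 and 0.15) and 0.27, 0.42 and 0.25 in males (SE 0.17, 0.17 and 0.19; adjusted p = 0.24, 0.098 and 0.35). The 95% intervals reached at most 0.51 in females and 0.78 in males on the log2 scale, so a change of the size of the other genes was outside them, while a small rise was not. At 3 weeks the unadjusted p was 0.030 in females and 0.027 in males, and the female value passed the test, at 0.35 (adjusted p = 0.033), when female 3-week replicate 2 was left out. With array weights it passed in both sexes at 3 weeks, at 0.30 in females and 0.41 in males (adjusted p = 0.0079 and 0.025). Without the libraries with atrial markers the female changes were 0.16 at 1 week and 0.23 at 6 weeks (adjusted p = 0.39 and 0.17).

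**Figure D2:**
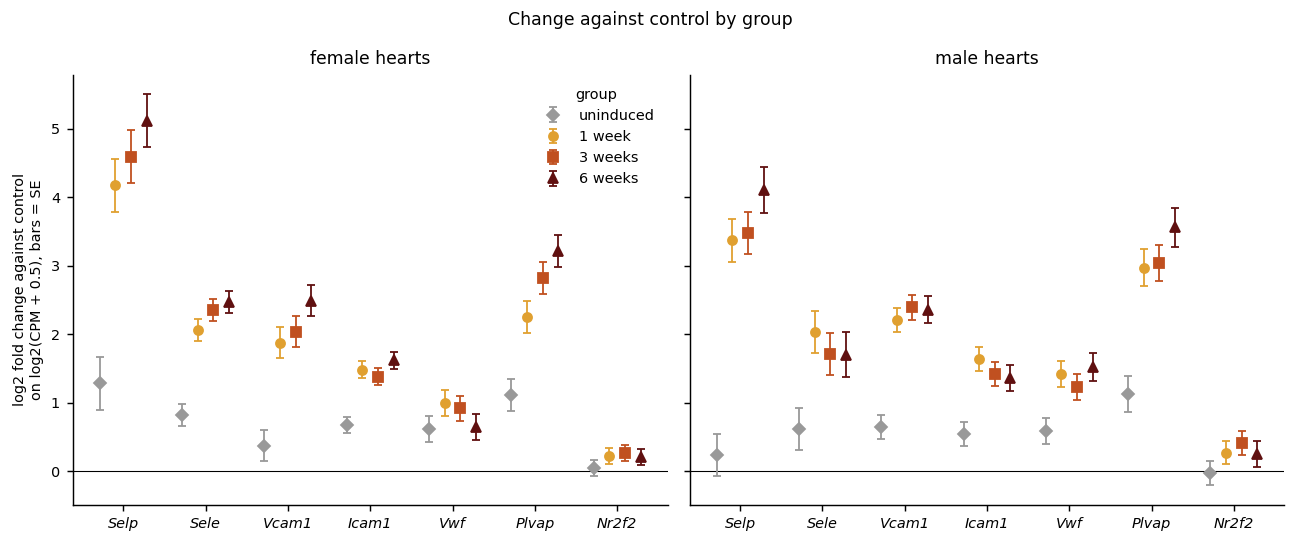
Log2 fold change against control on the log2(CPM + 0.5) scale for 7 genes, females left and males right, with SE as bars and a symbol each for the uninduced group and 1, 3 and 6 weeks after induction. *Selp* and *Plvap* stand highest, *Nr2f2* stays near 0, and the uninduced values lie below the induced ones for each of the other 6 genes, by little for *Vwf* in females at 6 weeks (0.61 against 0.64).

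Between the weeks, 1 difference among the 7 genes passed the test. From 1 to 3 weeks 0 of 7 genes were called in either sex, where 0.0118% of all genes were called higher and 0.00591% lower in males and 0.165% and 0.0531% in females. At an unadjusted p under 0.05, 0 of the 7 genes in males and 1 in females differed between these weeks, against 2710 and 1699 of all genes, and edgeR and DESeq2 also called 0 of the 7. From 3 to 6 weeks 0 of 7 were called, with 0% of all genes in either direction in males and 0% in either direction in females. At an unadjusted p under 0.05 the 3- and 6-week groups differed in 0 of the 7 genes in each sex, and in 1072 of all genes in males and 2572 in females. edgeR also called 0 of all genes between 3 and 6 weeks in both sexes, whereas DESeq2 called 1 gene higher in males and 73 higher and 44 lower in females, with 0 of the 7 among them.

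From 1 to 6 weeks *Plvap* rose in females by 0.97 on the log2 scale (SE 0.23; adjusted p = 0.045). It was the only called gene of the 7, where 0.891% of all genes were higher and 0.142% lower. edgeR called it too, among 129 genes higher and 23 lower, and so did DESeq2, among 247 and 58. The limma call was lost without female 1-week replicate 1, 3 or 4 and without female 6-week replicate 2, 3 or 4, with values of 0.73 to 1.04 and adjusted p of 0.060 to 0.18, and it was kept without both libraries with atrial markers (0.94, adjusted p = 0.014). The other differences of this kind in females were 0.94 for *Selp* (95% interval 0.14 to 1.75; adjusted p = 0.31), 0.61 for *Vcam1* (0.14 to 1.09; adjusted p = 0.26) and 0.41 for *Sele* (0.07 to 0.74; adjusted p = 0.30). In males 0 of 7 were called from 1 to 6 weeks, against 0.13% of all genes higher and 0.0354% lower, and edgeR and DESeq2 also called 0 of 7. *Plvap* differed by 0.59 there (95% interval 0.03 to 1.15; adjusted p = 0.30) and *Selp* by 0.74 (0.09 to 1.39; adjusted p = 0.27), both with an unadjusted p under 0.05. The 3 weeks were each compared with the same controls, so their changes against control share that group.

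The order of the groups by mean was control, uninduced, 1, 3 and 6 weeks for *Selp*, *Vcam1* and *Plvap* in both sexes and for *Sele* in females. Neighbouring induced weeks overlapped in range in all of these, except *Sele* at 3 and 6 weeks in females, where 3.98% of all genes had every 6-week library above every 3-week library. Every 6-week library was also above every 1-week library for *Selp* and *Sele* in females and for *Selp* in males, which held for 4.09% of all genes in females and 4.55% in males. *Vwf* had its highest mean at 1 week in females, 141 CPM ± 16.7 (SD, n = 4), and at 6 weeks in males, 143 CPM ± 30.2 (SD, n = 3). *Sele* and *Icam1* had their highest mean at 1 week in males, 4.73 CPM ± 1.85 and 28.1 CPM ± 4.93 (SD, n = 4 each), again with overlap between the weeks. A difference between the sexes was not tested, because the tables were scaled separately.

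Hearts of uninduced CM-Il11-Tg mice, with low *Il11*, were compared with controls in the same fit. In females *Sele* was higher by 0.82 (SE 0.16; adjusted p = 0.0057), *Plvap* by 1.11 (SE 0.23; adjusted p = 0.0082) and *Icam1* by 0.68 (SE 0.12; adjusted p = 0.0019). These were 3 of the 7 genes higher and 0 lower, where 2.41% of all genes were higher and 0.466% lower. Female uninduced libraries read 12.9, 13.7, 20.5 and 15.6 CPM for *Plvap*, all above the controls, and 13.4, 17.2, 17.9 and 15.9 CPM for *Icam1*. Every uninduced library lay above every control library for 870 of the 16956 genes tested in females. For *Sele* they read 1.19, 1.14, 2.47 and 1.34 CPM, with replicate 3 apart. *Selp* read 0.809, 0.683, 5.82 and 0.445 CPM, so that replicate 3 alone carries most of the group mean, and its change of 1.28 (SE 0.39) had an adjusted p of 0.085. That library also had the highest *Il11* of the group, 49.1 CPM against 15.5 to 21.4 CPM in the other 3.

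Without female uninduced replicate 3 the same 3 genes were called, at 0.62 for *Sele*, 0.98 for *Plvap* and 0.63 for *Icam1* (adjusted p = 0.015, 0.041 and 0.0090). *Selp* then averaged 0.646 CPM ± 0.185 (SD, n = 3), with a ratio to the control mean of 2.92 instead of 8.77 and a change of 0.67 (SE 0.21; adjusted p = 0.15). The call of *Sele* was lost with only the 2 groups in the fit (0.82, adjusted p = 0.12). Without female uninduced replicate 4 *Selp* passed the test, at 1.58 (adjusted p = 0.024). edgeR called 4 genes in this comparison, adding *Selp*, and DESeq2 called 5, adding *Selp* and *Vwf*. Of all genes, limma called 408 higher and 79 lower here, edgeR 461 and 54, and DESeq2 673 and 116. The change of *Vwf* was 0.61 (SE 0.19; adjusted p = 0.089), with libraries of 89.5, 92.6, 138 and 115 CPM that all lay above the controls and overlapped the 6-week group. Such a separation from the controls held for 870 of 16956 genes. *Vcam1* differed by 0.37 (SE 0.23; adjusted p = 0.46) and *Nr2f2* by 0.04 (SE 0.12; adjusted p = 0.89).

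In males 0 of the 7 genes were called between uninduced and control hearts, where 0.561% of all genes were higher and 0.0354% lower. At an unadjusted p under 0.05, 4 of the 7 and 1789 of all genes differed. edgeR called 0 of the 7, and DESeq2 called 1, *Plvap*. Of all genes, limma called 95 higher and 6 lower here, edgeR 97 and 3, and DESeq2 236 and 39. The change of *Plvap* was 1.13 (SE 0.27; adjusted p = 0.061), with libraries of 15.3, 11.1, 9.75 and 7.62 CPM, all above the controls, and it passed the test at 1.28 (adjusted p = 0.038) without male uninduced replicate 4. The uninduced males ran from 11.2 to 15.7 CPM for *Vcam1* and from 1.04 to 1.55 CPM for *Sele*, above the controls, and from 55.4 to 98.1 CPM for *Vwf* and 9.69 to 15.1 CPM for *Icam1*, overlapping them by the lowest library. Every uninduced library lay above every control library for 1382 of the 16931 genes tested in males. *Vcam1* differed by 0.64, *Sele* by 0.62, *Vwf* by 0.58 and *Icam1* by 0.55, with adjusted p of 0.14, 0.49, 0.24 and 0.22. *Selp* differed by 0.24 (SE 0.31; adjusted p = 0.85), with 1 library at 1.18 CPM and 3 between 0.228 and 0.504 CPM.

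Of 14 pan-endothelial genes, 0 were called higher by limma, and 7, 4 and 5 in males and 10, 10 and 9 in females were called lower at 1, 3 and 6 weeks. The share of all genes called lower was 14.6%, 8.1% and 10.9% in males and 13.1%, 14.5% and 21% in females. *Tie1*, an endothelial receptor, fell by 0.81 (SE 0.07, adjusted p = 3.4e-08) in females and by 0.51 (SE 0.15, adjusted p = 0.016) in males at 6 weeks. *Cdh5*, the junction protein VE-cadherin, fell by 0.65 (SE 0.13) and 0.63 (SE 0.18), with adjusted p of 0.00037 and 0.013. At 6 weeks 5 of the 14 genes in females and 9 in males were not called. *Kdr*, *Flt1* and *Nos3*, which the study also names as lower, are among the 14 and are not given singly here. The mean log2 level of the 14 genes was 6.34 in female controls, 5.84, 5.81 and 5.91 at the 3 weeks and 6.29 in uninduced females. In males it was 6.37 in controls, 5.96, 6.03 and 5.99 at the 3 weeks and 6.10 in uninduced hearts.

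Each of the 7 genes was therefore set against that mean within its own library. The log2 ratio was higher than in controls for all 7 genes in females at each week and for all 7 in males at 1 and 3 weeks, in 35 of 42 tests, with p = 0.0286 in each by a two-sided exact permutation test. That is the smallest p that groups of these sizes allow. In the other 7 tests, of 3 male 6-week hearts against 3 controls, p cannot go below 0.1. It was 0.1 for 6 genes and 0.2 for *Nr2f2*. The differences in females at 6 weeks were 5.55 for *Selp*, 3.66 for *Plvap*, 2.93 for *Vcam1*, 2.91 for *Sele*, 2.05 for *Icam1* and 1.08 for *Vwf*. For *Nr2f2* they were 0.72, 0.80 and 0.65 at 1, 3 and 6 weeks in females and 0.67, 0.75 and 0.63 in males. *Nr2f2* itself had changes of 0.22, 0.27 and 0.21 in females and 0.27, 0.42 and 0.25 in males, none of which passed the test. The panel holds *Cdh5*, *Kdr*, *Flt1*, *Tie1* and *Nos3*, which the study names as lower in these same hearts. The panel mean fell at each week, so a gene with no change of its own also gains in this ratio. Passing this test therefore does not show a change of the gene itself. The share of all genes that would pass the same ratio test was not computed.

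**Figure D3:**
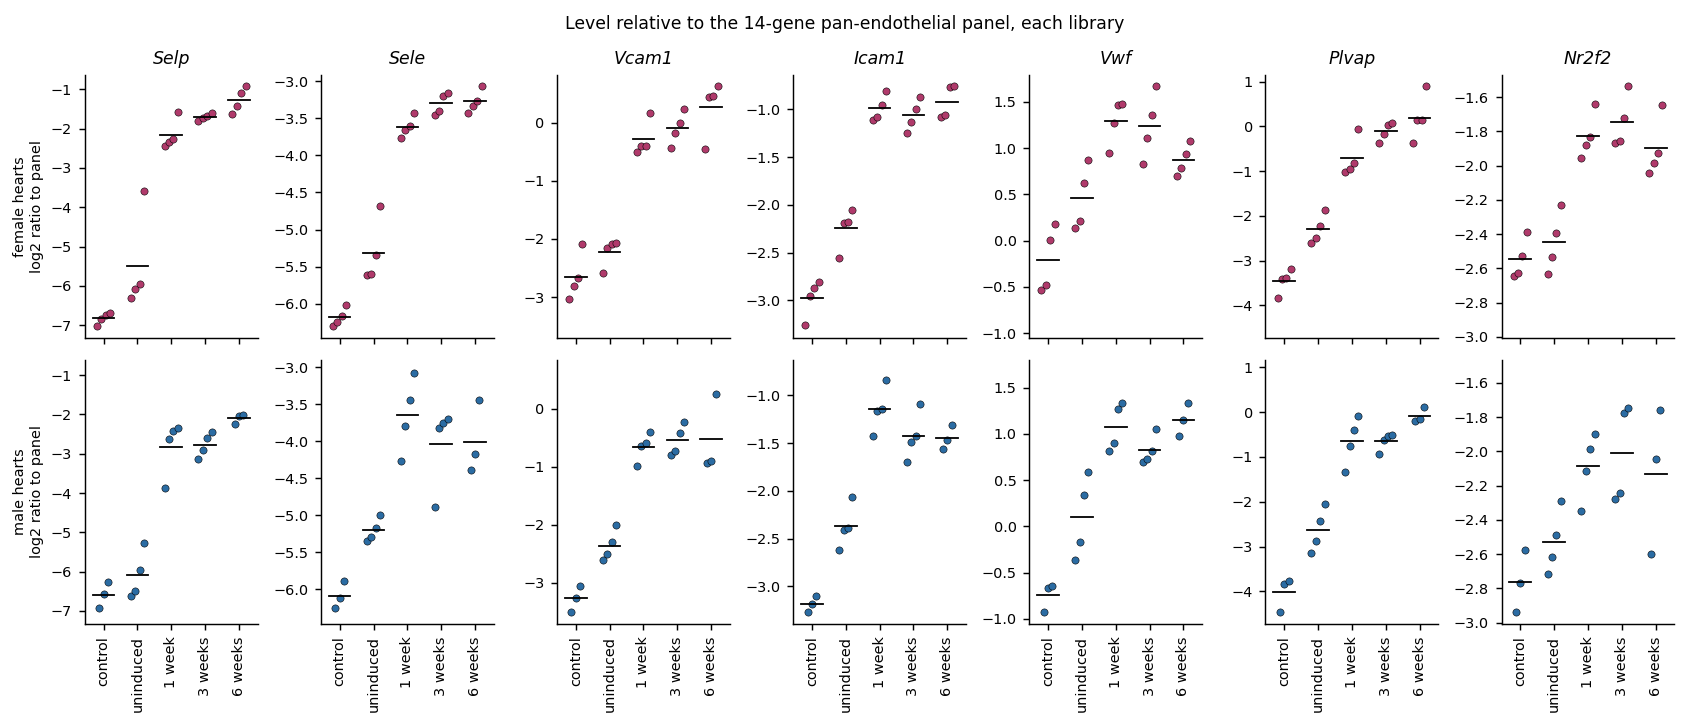
Log2 ratio of 7 genes to the mean log2(CPM + 0.5) of 14 pan-endothelial genes in the same library, females above and males below, where points are libraries and lines are group means. Induced libraries lie above controls for each gene, except that 1 male 6-week library of *Nr2f2* reaches into the control range.

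Per kilobase of exon, the genes changed places. In controls *Vwf* had the highest level, 4.23 CPM per kilobase in females and 2.93 in males, followed by *Icam1*, 1.99 and 1.74, and *Selp* had the lowest, 0.0501 and 0.0833. *Plvap*, *Nr2f2* and *Vcam1* lay below *Icam1* and above *Sele* by mean and overlapped one another, and the highest of them overlapped *Icam1*. At 6 weeks *Plvap* had the highest level, 18.8 CPM per kilobase in females and 15.9 in males, above every library of the other genes in its sex. *Selp* then stood at 5.67 in females and 3.26 in males, overlapping *Icam1* in both sexes, and *Sele* stood lowest at 1.49 and 0.986, overlapping *Nr2f2*. Lengths are unions of exons in the annotation and not the isoforms used in the heart.

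The partners of these molecules on leukocytes were read from a list of 11 counter-receptors. In females 10, 9 and 10 were higher and 0 lower at 1, 3 and 6 weeks, with medians of 1.24, 1.31 and 1.73, and in males 7, 8 and 7 were higher and 0 lower, with medians of 1.01, 1.22 and 1.24. Over all genes tested, 15.3%, 16.8% and 21.7% were higher in females and 18.9%, 13.2% and 16.2% in males. *Selplg*, which encodes the P-selectin ligand PSGL-1, was higher at 6 weeks by 1.89 in females and 1.75 in males (SE 0.16 and 0.21; adjusted p = 1.1e-08 and 4.4e-06). *Itgb2*, the shared chain of the integrins that bind ICAM-1, was higher by 1.93 and 1.37 (SE 0.16 and 0.20; adjusted p = 4.2e-09 and 4.0e-05). *Itgax* and *Spn*, a dendritic-cell and macrophage integrin chain and the sialomucin CD43, were higher by 2.67 and 2.67 in females and by 2.05 and 1.91 in males.

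Cytokines such as TNF and IL-1 induce adhesion molecules through their receptors. Of 10 tested genes for inflammatory cytokines, their receptors and NF-kB feedback, 6, 8 and 8 were higher in females and 7, 5 and 5 in males at the 3 weeks, and 0 were lower. The share of all genes called higher was 15.3%, 16.8% and 21.7% in females and 18.9%, 13.2% and 16.2% in males. The medians of the list were 0.72, 1.12 and 1.30 in females and 0.90, 0.63 and 0.84 in males. Of the 13 genes on the list, *Il1a* and *Lta* are not listed for either sex and *Tnf* is not listed for females. For males 11 are listed, of which 10 passed the filter. The cytokines themselves are not given singly here. *Il1r1*, the IL-1 receptor, went from 13.8 CPM ± 2.09 (SD, n = 4) in female controls to 80.2 CPM ± 12.1 (SD, n = 4) at 6 weeks, a log2 change of 2.50 (SE 0.17; adjusted p = 4.0e-10), and changed by 2.23 (SE 0.20; adjusted p = 7.6e-08) in males. The TNF receptors *Tnfrsf1a* and *Tnfrsf1b* rose by 1.78 and 2.08 in females and by 1.76 and 1.74 in males, and *Birc3*, an NF-kB target, by 1.21 and 0.96 in females and males. In uninduced hearts *Il1r1* was already called, at 1.08 in females and 0.87 in males (adjusted p = 0.00076 and 0.031).

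The other pathway lists split. At 6 weeks 21.7% of all genes tested were higher and 21% lower in females, and 16.2% and 10.9% in males. Of 8 enzymes that build selectin ligands, 5 were higher and 1 lower in females at 6 weeks and 4 higher and 0 lower in males (medians 0.52 and 0.57), among them *B4galt1* (1.08 and 1.198) and *Chst2* (1.04 and 0.59). Of 5 genes of Weibel-Palade bodies and VWF release, 2 were higher and 0 lower in females and 3 higher and 1 lower in males (medians 0.28 and 0.47). The vesicle membrane protein *Cd63* rose by 1.48 and 1.25, and *Angpt2*, an angiopoietin stored in the same bodies, fell by 1.07 in males (SE 0.22; adjusted p = 0.0014) with -0.06 (adjusted p = 0.84) in females. Of 10 genes for endothelial junctions and transmigration, 3 were higher and 4 lower in females and 1 higher and 1 lower in males (medians -0.13 and -0.11), with *Mcam* higher by 0.60 and 0.44 and *Cdh5* lower as above. Of 5 caveolar genes, 4 were lower in females and 1 in males (medians -0.42 and -0.37), with *Cavin2* falling by 0.42 and 0.75.

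Venous identity genes did not move as a group. At 6 weeks 21.7% of all genes tested were higher and 21% lower in females, and 16.2% and 10.9% in males. Of 6 of them, apart from *Nr2f2*, 2 were higher and 0 lower in each sex at 6 weeks, with medians of 0.18 in females and -0.13 in males. The 2 were *Ackr1*, the chemokine-binding receptor of venules, at 2.65 and 3.02 (SE 0.27 and 0.22; adjusted p = 1.4e-07 and 5.0e-09), and *Lrg1*, a secreted glycoprotein, at 2.11 and 2.47 (SE 0.48 and 0.25; adjusted p = 0.0015 and 3.6e-07). *Nrp2* and *Aplnr* had values of -0.30 and 0.26 in females and -0.43 and -0.21 in males and were not called. Of 9 arterial genes, 1 was higher and 4 lower in females and 0 higher and 1 lower in males (medians -0.41 and -0.21), with *Efnb2*, the arterial ephrin, falling by 0.47 and 0.97 (adjusted p = 0.0073 and 0.00037). Of 4 listed genes of high endothelial venules, 3 were higher in females and 1 in males, where *Enpp2* was lower, and the chemokine *Ccl21a*, also made by lymphatic vessels, rose by 1.46 and 2.09 (adjusted p = 1.3e-07 and 0.00024).

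**Figure D4:**
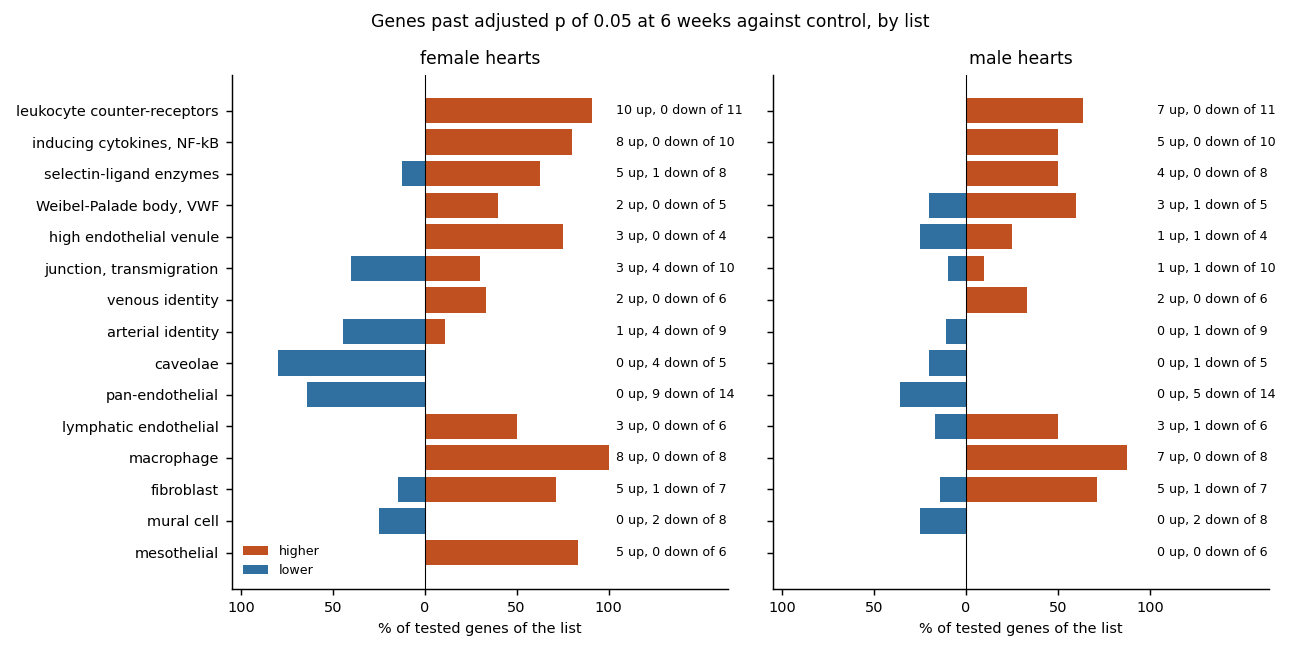
Share of the tested genes of 15 lists that were called higher (right of 0) or lower (left of 0) at 6 weeks against control, females left and males right, with the counts beside each bar. Macrophage and leukocyte counter-receptor genes are mostly higher, and pan-endothelial and caveolar genes are lower where called. Of all genes tested, 21.7% were higher and 21% lower in females, and 16.2% and 10.9% in males.

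Markers of other cell types moved with these genes, and their part in the results was not tested. At 6 weeks 21.7% of all genes tested were higher and 21% lower in females, and 16.2% and 10.9% in males. Of 8 macrophage markers, 8 were higher in females and 7 in males at each week, and their sum went from 132 to 162 CPM in female controls to 630 to 723 CPM at 6 weeks and from 131 to 234 CPM to 490 to 760 CPM in males. In uninduced females all 8 were already higher, with a sum of 229 to 332 CPM, and in uninduced males 0 of 8. There 2.41% of all genes were higher in females and 0.561% in males. Of 7 fibroblast markers, 5 were higher and 1 lower at 6 weeks in each sex, and the sum went from 1770 to 2055 CPM to 3253 to 5801 CPM in females and from 1323 to 1561 CPM to 2808 to 3186 CPM in males. Platelets also carry P-selectin and VWF. Of 9 platelet markers, *Gp5*, *Gp6* and *Gp9* are not listed for either sex and *Treml1* not for females, and among the 5 tested 2 were higher and 1 lower in females and 3 higher and 1 lower in males at 6 weeks, with a summed level of 20.9 to 31.0 CPM against 10.3 to 15.3 CPM in female controls and of 24.8 to 47.4 CPM against 10.3 to 12.8 CPM in male controls.

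The remaining cell-type lists moved less evenly at 6 weeks, when 21.7% of all genes were higher and 21% lower in females. In males these shares were 16.2% and 10.9%. Of 6 lymphatic endothelial markers, 3 were higher in each sex, among them *Pdpn*, also carried by fibroblasts and mesothelium, and 1 was lower in males. Mesothelial markers were higher for 5 of 6 genes in females and 0 of 6 in males, with sums of 16.3 to 93.5 CPM and 6.62 to 31.98 CPM against at most 11.2 and 8.22 CPM in controls. Of 8 mural cell markers 0 were higher and 2 lower in each sex, of 6 cardiomyocyte markers 2 were lower in females and 1 in males, and of 4 endocardial markers 1 was lower in females. Neutrophil markers were low throughout: *Cxcr2*, *Ly6g* and *Retnlg* are not listed and the other 3 summed to at most 8.11 CPM in any library, with 1 higher in each sex. Of the T-cell markers 4 of 6 tested were higher in females and 1 of 4 in males, and of the B- and plasma-cell markers 2 of 5 and 2 of 4. *Cd3d*, *Cd3e* and *Ms4a1* are not listed for males. Of 5 atrial markers *Sln*, *Bmp10* and *Mybphl* are not listed for either sex and *Myl7* not for males, and the others had 0 calls.

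Within the set, levels ran together across libraries. Over the 18 male and 20 female libraries of the 5 groups, the lower of the 2 sexes' Pearson correlations of log2(CPM + 0.5) between *Selp* and *Vcam1* was 0.94, between *Sele* and *Icam1* 0.95, and between *Plvap* and *Vcam1* 0.94. *Vwf* had correlations of 0.62 to 0.74 in females and of 0.83 to 0.96 in males with *Selp*, *Sele*, *Vcam1*, *Icam1* and *Plvap*. *Nr2f2* had the lowest, with 0.45 to 0.70 over both sexes and all 6 other genes. These correlations are across libraries that share the group differences, and no p is given.

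The genes most like each member, by the lower of the 2 sexes' correlations among 16627 genes tested in both tables, were as follows. *Selp* was closest to *Csf2rb*, *Glis3* and *Pdpn* (0.98 each), and *Plvap* to *Igfbp4* (0.98), *Tmem176b* and *Lgals3* (0.97 each). *Vcam1* was closest to the matrix and fibroblast genes *Aebp1*, *Lpar1* and *Dcn* (0.98, 0.97 and 0.97). *Sele* was closest to *Icam1* (0.95), *Mcoln2* and *Serpinb1a* (0.93 each), and *Icam1* to *Ccl19* (0.96) and to *Gm2564* and *Ccl19-ps3* (0.95 each), which are near-identical copies of *Ccl19* whose reads cannot be told apart with certainty. *Vwf* was closest to *Loxl4*, *St3gal1* and *Ptprf* (0.85, 0.82 and 0.82), and *Nr2f2* to *Spns2*, *Tle3* and *Slc35b4* (0.78, 0.77 and 0.75).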

How the data were processed

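Polyadenylated RNA of single hearts was sequenced, from left ventricle per the study's text and labelled as heart. Per the study's methods, reads were aligned with STAR and counted with featureCounts against GRCm39. The deposited values, which the authors call CPM, are a signal: counts divided by 1 factor per library, with males and females scaled separately. Division by each library's step gave whole reads for 100% of values (tolerance 0.001 read), on which edgeR 4.0.16 and DESeq2 1.42.0 were run as alternatives. At 6 weeks edgeR called 3674 genes higher and 3395 lower in females and 2875 and 1786 in males. Since the values are not counts as deposited, limma 3.58.1 (trend) was fitted on log2(CPM + 0.5), all 5 groups of a sex together, over genes at 0.5 CPM or more in at least 3 libraries. Adjusted p is Benjamini-Hochberg over all genes tested in a sex. All p-values are two-sided and measure the spread between single hearts. The limma fit was tested on simulated counts with changes placed at 6 weeks and the same dispersion for every gene, which the data need not share. edgeR and DESeq2 were not tested this way. The members and lists were chosen with earlier results of these data known. Genes named are the members, *Il11*, up to 4 per list by rank of p at 6 weeks over both sexes, and the 3 genes most like each member. Of the endothelial genes the study names, values are given for *Tie1* and *Cdh5*. Replicate numbers did not pair libraries. Computations used Python 3.11.15 and R 4.3.3. The range of depth in each sex is given in the report, and counting intervals cover counting error only.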

Additional observations from a re-analysis of the deposited data

Results flagged for a closer look

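In 7 of 56 groups of 4 libraries, 1 library stood apart from the other 3 by Dixon's criterion, which chance meets in about 1 in 20 groups. Female 1-week replicate 2, a library with atrial markers, was high for *Plvap* (53.7 CPM), *Selp* (18.4 CPM) and *Vcam1* (63.4 CPM). Female uninduced replicate 3, the library with the most *Il11* of its group, was high for *Selp* (5.82 CPM) and *Sele* (2.47 CPM). Female uninduced replicate 2 was low for *Vcam1* (12.8 CPM), and female 6-week replicate 4 was high for *Sele* (5.98 CPM).

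The 2 male libraries with contradicting labels are outside every comparison. The one titled as control, whose description names 6 weeks, lay above every male control for all 7 genes, with 11.9 CPM of *Selp*, 2.75 of *Sele*, 59.4 of *Vcam1*, 20.7 of *Icam1*, 111 of *Vwf*, 40.6 of *Plvap* and 16.8 of *Nr2f2*. Its *Il11* was 511 CPM, within the range of induced hearts. The one titled as 6 weeks, whose description names control, lay above every male control for *Icam1* (9.79 CPM), *Plvap* (8.48 CPM) and *Vwf* (82.2 CPM). Its *Il11* was 0.597 CPM, below every uninduced heart and above every control.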

How the results depend on the processing

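Outside the placing of the 2 male libraries, the count of genes called against control at 1, 3 and 6 weeks was 6 in 103 alternative settings and 7 in 3, which were array weights at 3 weeks in each sex and 3 weeks in females without female 3-week replicate 2. Leaving out 1 library at a time gave 6 to 6 in males at each week, and in females 6 to 6, 6 to 7 and 6 to 6. Placing the 2 libraries by title, which puts one with *Il11* at 511 CPM among controls and one at 0.597 CPM among 6-week hearts, gave 0 genes in males at 3 and at 6 weeks, and all-gene calls of 3259 instead of 5671 at 1 week, 0 instead of 3610 at 3 weeks, 0 instead of 4580 at 6 weeks and 1 instead of 101 in uninduced hearts.

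In uninduced males the count of 0 became 1 with a pseudocount of 0.1, array weights and DESeq2, and was 0 to 1 without single libraries. In uninduced females the count of 3 became 5 with DESeq2, 4 with edgeR, array weights and a pseudocount of 0.1, and 2 with 2 groups in the fit, and was 3 to 4 without single libraries. Array weights gave 1 gene between 1 and 3 weeks in females. From 1 to 6 weeks in females the count of 1 became 0 with a pseudocount of 0.1, 2 groups in the fit and the replicate block, and 2 with array weights, and was 0 to 2 without single libraries. With the replicate block *Plvap* differed there by 0.97 (adjusted p = 0.055), and the block changed no other count. The samples share only a number, since the mean correlation of same-numbered deviations was 0.03 in females and 0.01 in males. The causes were not tested.

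*Nr2f2* turned to -0.014 with array weights and -0.001 without male 6-week replicate 4 at 6 weeks in males. In uninduced males it turned to 0 with the replicate block, 0.106 without male control replicate 4 and 0.003 without male uninduced replicate 2, and in uninduced females to -0.006 without female control replicate 2 and -0.014 without female uninduced replicate 3. In uninduced males *Selp* turned to -0.010 without male uninduced replicate 1 and to -0.729 with the 2 libraries placed by title, which also turned *Vcam1* to -0.056. Without single libraries *Nr2f2* ran up to 0.392 at 6 weeks in males, from -0.171 to 0.106 in uninduced males and from -0.014 to 0.127 in uninduced females, and *Selp* in uninduced males from -0.010 to 0.392.

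All-gene calls in uninduced females, 487, were 170 with 2 groups in the fit, 789 with DESeq2 and 282 to 795 without single libraries. In uninduced males, 101, they were 65 with the block, 416 with array weights, 275 with DESeq2 and as few as 49 without a single library. At 6 weeks in males they were 2819 instead of 4580 with 2 groups in the fit. Of the 42 tests of the ratio to the panel, 35 had an adjusted p under 0.05, and 34 did with a pseudocount of 2. At that setting *Sele* in males at 3 weeks had an adjusted p of 0.069 by the permutation test. The panel mean itself fell at each week, so these counts include *Nr2f2*, which did not pass the limma test on its own. Depth limited *Selp*, of which the female controls hold 18 reads. An alternative without both libraries with atrial markers was chosen after seeing the data.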
